A study of Mus musculus with 8 samples.

Results

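The genes described here are 10 feedback inhibitors of MAP kinase signalling, taken by their mouse symbols from a table of 22337 genes: the dual-specificity phosphatase genes Dusp1, Dusp4, Dusp5, Dusp6 and Dusp14, and the Sprouty and Spred genes Spry1, Spry2, Spry4, Spred1 and Spred2. All 10 were found, each as 1 row with an Ensembl identifier. They were measured by RNA-seq in the nucleus accumbens, the ventral part of the striatum, of male C57BL/6 mice: 4 libraries from mice given saline and 4 from mice given morphine, which the series title calls chronic exposure. The values were FPKM, fragment counts divided by transcript length and sequencing depth. Levels of different genes can be compared only roughly, because the transcript lengths used are not given. Neither the dose and schedule nor the animals' age and the interval before dissection could be taken from the labels. No label ties a replicate to an animal of its own, so the p-values below reflect only how far these libraries differed within a group, and that may be technical.

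ERK, the last kinase of the cascade that runs from receptor tyrosine kinases through Ras, Raf and MEK, is switched on in striatal neurons by dopamine together with glutamate, and by drugs of abuse. Its activity is limited by genes that it induces itself. Dual-specificity phosphatases remove the phosphates from the activation loop of MAP kinases. Sprouty and Spred proteins act further upstream, where they hold back the activation of Ras and Raf, and because transcription of several of these inhibitors follows ERK activity, their mRNA is widely used as a readout of the pathway.

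Dusp6 was the only member that passed the test across all genes, and it was 1.83-fold higher with morphine (ratio of mean FPKM). Dusp4 and Spry4 had higher values in all 4 morphine libraries than in any saline library and did not pass. The other members overlapped between the groups. A gene passed when its adjusted p from limma was under 0.05 (differences of log2(FPKM + 1), Benjamini-Hochberg over the 12536 genes that reached an FPKM of 1 in 4 or more libraries). Of the 9 members that met this filter on low values, 1 passed as higher and 0 as lower, where 2.52% of all tested genes passed, 1.04% as higher and 1.48% as lower. At an unadjusted p under 0.05 there were 3 members, all higher, beside 20.1% of all tested genes (10% higher and 10.1% lower). A log2 change above 0 was seen in 7 of the 9 and in 52% of all tested genes. The median log2 change was 0.17 over the 5 phosphatase genes and 0.19 over the 4 tested Sprouty and Spred genes, beside 0.012 over all tested genes.

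The libraries held between about 12300000 and 19300000 fragments, as estimated from the step that 1 fragment makes in the FPKM of short genes. Saline replicate 3 stood apart. The mean level of 22 tested striatal neuron markers on the log2(FPKM + 1) scale was 6.82 in that library. It ran from 4.62 to 4.93 in saline replicates 1, 2 and 4 and from 2.93 to 3.43 with morphine. Of these markers 14 fell with morphine and 0 rose (20 were lower at an unadjusted limma p under 0.05). The summed FPKM of the striatal list ran from 1262 to 5832 in saline and from 410 to 544 in morphine. Among 14 tested cortical glutamatergic markers 1 rose (7 were higher at an unadjusted limma p under 0.05), and their summed FPKM ran from 129 (saline replicate 3) to 393.0 in saline and from 439 to 518.5 in morphine. Endothelial markers fell in 4 of 11 tested genes, astrocyte markers in 3 of 13 and mural cell markers in 1 of 9, and 10, 7 and 5 of them were lower at an unadjusted limma p under 0.05. Of 10 oligodendrocyte markers 0 passed and all 10 had negative changes (5 lower at an unadjusted limma p under 0.05; median log2 change −0.35). None of 9 oligodendrocyte precursor and 10 microglial markers passed (1 and 0 lower at an unadjusted limma p under 0.05).

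These marker counts moved with single libraries. The number of striatal markers that fell was 18 with saline replicate 3 left out, 8 without saline replicate 1, 9 without morphine replicate 1, 5 without morphine replicate 2, 1 with no filter on low values, and 0 in each of the fits lacking saline replicate 2, morphine replicate 3 or morphine replicate 4, in which no gene at all passed; over these fits the median log2 change lay between −2.51 and −1.70. Of the cortical markers 3 rose with saline replicate 3 left out. Mitochondrial genes made up 9.09 to 12.62% of the summed FPKM in saline and 6.09 to 7.94% in morphine, and the number of genes at an FPKM of 1 or more was 12527 to 12655 in saline and 12287 to 12347 in morphine, so that the groups did not overlap in either. No marker of these lists was at 0 in any library. In bulk tissue, fewer cells of a type and less RNA per cell cannot be told apart. The part of these shifts in the results below was not tested. The 9 tested members were also fitted with the striatal mean as a covariate and with the mitochondrial genes removed. Because the striatal mean did not overlap between the groups, the covariate fit cannot tell its part from the difference between morphine and saline.

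The phosphatases are described first, beginning with Dusp6, a cytoplasmic phosphatase that is selective for ERK (ENSMUSG00000019960, chromosome 10, 99263231 to 99267489, plus strand, GRCm38). Its FPKM was 25.35, 20.76, 21.25 and 20.13 in saline replicates 1 to 4 and 38.48, 37.51, 48.14 and 36.16 in morphine replicates 1 to 4. The groups did not overlap: the lowest morphine value lay well above the highest saline value, and saline replicate 3 was an ordinary saline library for this gene. The mean FPKM rose from 21.9 ± 2.36 to 40.1 ± 5.46 with morphine (SD, n = 4 each). The log2 change was 0.84 ± 0.12 (SE; 95% interval 0.57 to 1.11; limma adjusted p = 0.0207), and by unadjusted p the gene ranked 20 of 12536. Between 691 and 2323 fragments stood behind each value, which gives a counting error of at most 3.8%, below the spread within the groups (10.8% and 13.6% of the mean). Counting errors here and below treat fragments as independent, and PCR copies among them would make the errors larger.

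The direction and size of the Dusp6 difference did not rest on a single library, but its call did, and it also depended on other settings. Leaving out each library in turn gave log2 changes between 0.75 and 0.91. The adjusted p was then 0.0680 without saline replicate 2, 0.0655 without morphine replicate 3 and 0.0621 without morphine replicate 4, and in those 3 fits limma called 0 of 12536 genes (0%), with 2005, 1953 and 2136 genes below 0.05 before adjustment. With saline replicate 3 left out the change was 0.83 ± 0.13 (limma adjusted p = 0.0149; 0.965% of all tested genes rose). Dusp6 also passed in the fits without saline replicate 1, saline replicate 4, morphine replicate 1 and morphine replicate 2, where 0.215%, 1.58%, 0.391% and 0.199% of all tested genes rose. With the striatal mean as a covariate it was 0.76 ± 0.24 (limma adjusted p = 0.317), where 3 genes of 12536 passed and 0.016% rose. With no filter on low values the adjusted p was 0.0504 (limma), and with the mitochondrial genes removed and the rest rescaled the change was 0.80 ± 0.11 (SE; limma adjusted p = 0.0167).

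**Figure D1:**
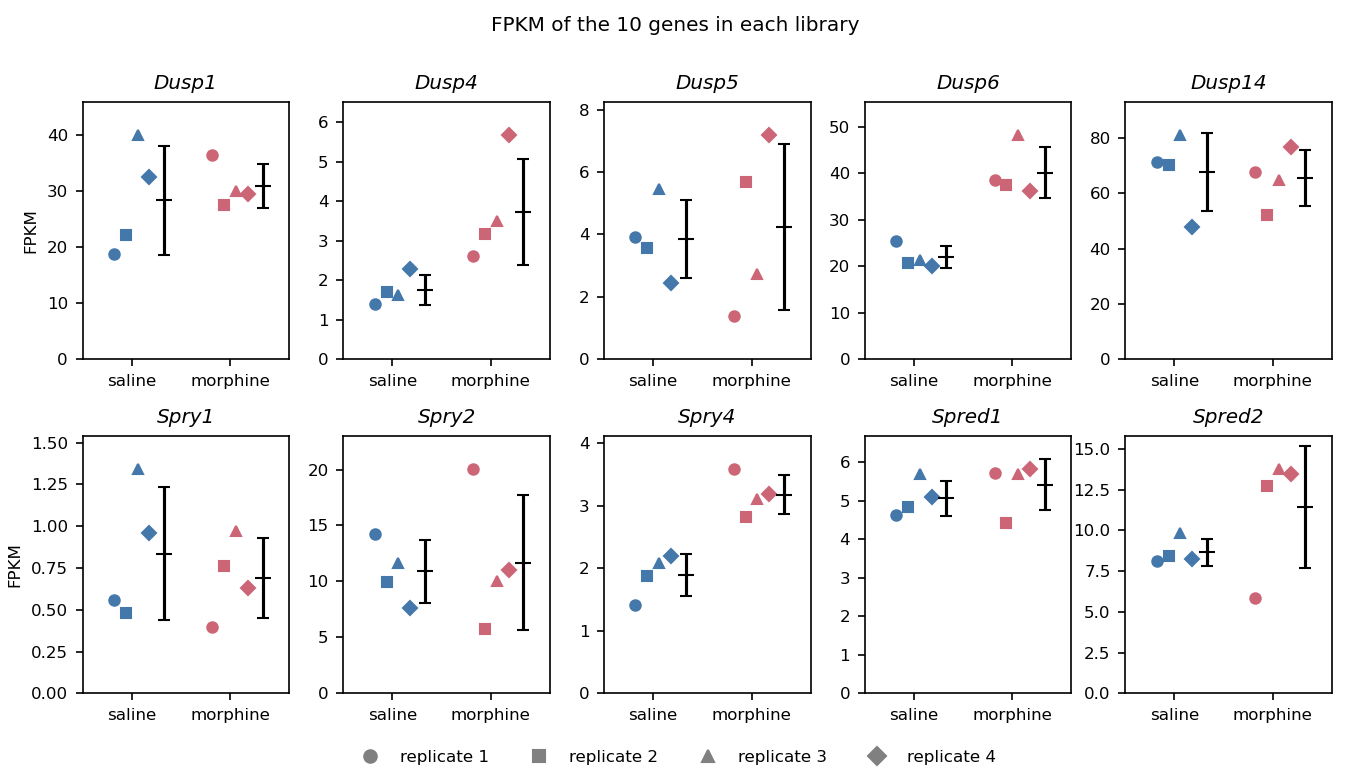
FPKM of each of the 10 genes (linear axes from 0, one panel per gene) in the 4 saline libraries (blue) and the 4 morphine libraries (red), with the mean and SD of each group in black; the symbol gives the replicate number. Dusp6, Dusp4 and Spry4 are the panels in which the groups do not overlap, and in Spred2 morphine replicate 1 sits at 5.85 FPKM apart from the other morphine libraries.

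Dusp4 encodes a nuclear phosphatase of ERK, JNK and p38 (ENSMUSG00000031530, chromosome 8, 34807297 to 34819894, plus strand, GRCm38). It was weakly expressed, at 1.41, 1.70, 1.62 and 2.28 FPKM in saline and 2.61, 3.16, 3.51 and 5.67 in morphine replicates 1 to 4. All morphine values lay above all saline values, and morphine replicate 4 was the highest. The mean went from 1.75 ± 0.372 to 3.74 ± 1.34 FPKM (SD, n = 4 each), a 2.13-fold ratio, with a log2 change of 0.75 ± 0.20 (SE; 95% interval 0.32 to 1.19) that did not pass (limma adjusted p = 0.0720). At this level the log2(FPKM + 1) scale understates the ratio, and with a pseudocount of 0.1 the change was 1.01 (limma adjusted p = 0.0701). With the striatal mean as a covariate the change was 0.59 ± 0.39 (SE; limma adjusted p = 0.665), and Dusp4 passed in none of 16 alternative fits. Counting error was at most 13.1% (59 to 221 fragments per library), below the spread of 21.2% and 35.9% within the groups. Groups that did not overlap, with morphine higher, were seen in 3 of the 9 tested members and in 6.56% of all tested genes. With saline higher they were seen in 0 members and in 6.1% of all tested genes (12.7% in either order).

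Dusp1, the founding nuclear MAP kinase phosphatase and an immediate early gene in its own right (ENSMUSG00000024190, chromosome 17, 26505590 to 26562128, minus strand, GRCm38), had 18.81, 22.15, 40.03 and 32.52 FPKM in saline and 36.50, 27.59, 30.09 and 29.56 in morphine. The saline libraries spanned the whole range, and the highest value of all was that of saline replicate 3. The log2 change was 0.17 ± 0.21 (SE; 95% interval −0.29 to 0.64; limma adjusted p = 0.697). It was 0.35 ± 0.18 without saline replicate 3 (limma adjusted p = 0.320), 0.0034 without saline replicate 1, and 1.00 ± 0.29 with the striatal mean as a covariate (limma adjusted p = 0.262). Of the 9 tested members, Dusp1 had the difference that moved most with the covariate, and it passed in none of these fits.

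Dusp5, a nuclear phosphatase selective for ERK, had 3.93, 3.57, 5.47 and 2.43 FPKM in saline and 1.38, 5.69, 2.73 and 7.18 in morphine. The morphine libraries held both its lowest and its highest value, and the log2 change was −0.01 ± 0.36 (SE; 95% interval −0.80 to 0.78; limma adjusted p = 0.992). An antisense gene, AC137853.2, overlaps 547 exon bases of Dusp5; the protocol in the labels marks no strand, so reads of the pair cannot be told apart.

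Dusp14, a small phosphatase that lacks the MAP kinase binding domain of the others, was the most abundant member. It had 71.42, 70.37, 81.00 and 47.77 FPKM in saline and 67.68, 52.20, 64.94 and 76.82 in morphine, with the groups fully interleaved (log2 change −0.04 ± 0.17 SE, 95% interval −0.41 to 0.34, limma adjusted p = 0.934). Dusp5 and Dusp14 kept no direction when single libraries were left out.

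The promoters of Dusp6, Dusp1 and Dusp5 are shown because all are inducible phosphatase genes, of which Dusp6 passed the test and the other two overlapped between the groups. Sequences were matched for 8 of the 10 members (Dusp4 and Spry4 are named only) and come from RefSeq, GRCm38.p6, as the 250 bases before the annotated start, 5′ to 3′ on the gene's strand. The first 200 bases of each window are printed; the 50 nearest the start are left out because GENCODE places exon bases of Dusp1 and Dusp5 there. The printed stretches are chr10:99262981-99263180 (plus strand) for Dusp6, chr17:26508523-26508722 (minus strand) for Dusp1 and chr19:53528895-53529094 (plus strand) for Dusp5. Capitals mark matches, on either strand, to the cAMP response element TGACGTCA or its short form TGACG (the long form contains the short one), to the AP-1 motif TGANTCA, to the ETS motif CCGGAAG and to the CArG box, the binding site of serum response factor.
Dusp6 promoter: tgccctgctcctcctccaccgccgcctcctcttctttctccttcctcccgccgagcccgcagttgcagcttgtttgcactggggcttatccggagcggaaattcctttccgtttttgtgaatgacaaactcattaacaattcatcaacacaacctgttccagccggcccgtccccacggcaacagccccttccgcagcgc
Dusp1 promoter: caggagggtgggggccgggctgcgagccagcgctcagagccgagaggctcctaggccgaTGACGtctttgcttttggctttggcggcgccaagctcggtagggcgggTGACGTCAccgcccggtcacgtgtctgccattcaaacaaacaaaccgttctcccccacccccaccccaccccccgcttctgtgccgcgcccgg
Dusp5 promoter: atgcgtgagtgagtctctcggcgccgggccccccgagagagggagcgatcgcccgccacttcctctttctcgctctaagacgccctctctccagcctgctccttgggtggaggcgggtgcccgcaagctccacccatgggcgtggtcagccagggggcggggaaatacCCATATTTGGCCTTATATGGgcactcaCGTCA

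The Dusp6 window held no match to any of these motifs. The Dusp1 window held TGACGTCA at position −143 from the start and a further TGACG at −191, and the Dusp5 window held 2 adjacent CArG boxes at −82 and −72 and a short cAMP element at −55. Among 32851 promoters of the same length, 1.55% held TGACGTCA, 17.8% TGACG, 6.75% TGANTCA, 6.91% CCGGAAG and 1.47% a CArG box. These shares are not matched for base content: the windows of the members had 56.0 to 70.8% GC, beside a median of 52.4% over all promoters. Of the 8 members searched, 3 held TGACG (Dusp1, Dusp5 and Spred2), and none held the AP-1 or the ETS motif in this window. A match is a description of the letters and not a site of binding. The 2 genes with the longer elements, Dusp1 and Dusp5, were among those whose groups overlapped. So was every member searched other than Dusp6, because Dusp4 and Spry4 had no sequence. These windows therefore cannot show whether an element goes with a change.

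Among the upstream inhibitors, Spry4 differed most. Its product restrains Ras activation downstream of growth factor receptors (ENSMUSG00000024427). It had 1.42, 1.87, 2.08 and 2.19 FPKM in saline and 3.58, 2.82, 3.11 and 3.19 in morphine, so that every morphine library lay above every saline library with little spread. The mean went from 1.89 ± 0.340 to 3.18 ± 0.313 FPKM (SD, n = 4 each), a 1.68-fold ratio. The log2 change of 0.54 ± 0.14 (SE; 95% interval 0.23 to 0.84) did not pass (limma adjusted p = 0.0711). Of 16 alternative fits Spry4 passed in 1, that with quantile normalisation (0.63, limma adjusted p = 0.0474; 0.75% of all tested genes rose). With 1 library left out the limma adjusted p ran from 0.0649 to 0.172. With the striatal mean as a covariate the change was 0.71 ± 0.28 (SE; limma adjusted p = 0.440). Counting error was at most 9.9% (102 to 328 fragments).

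Spry2, the Sprouty gene with the highest level here, showed no such separation. It had 14.26, 9.98, 11.69 and 7.67 FPKM in saline and 20.01, 5.71, 10.04 and 10.99 in morphine. The highest and the lowest of the 8 values were both morphine libraries, and the log2 change was 0.0044 ± 0.30 (SE; 95% interval −0.67 to 0.67; limma adjusted p = 0.996). Spry1 was near the limit of the measurement, between 0.48 and 1.34 FPKM in saline and between 0.40 and 0.97 in morphine (19 to 57 fragments, counting error up to 22.9%). It reached an FPKM of 1 in only 1 library and was tested alone: the difference of log2(FPKM + 1) was −0.11 (exact permutation test over 70 assignments, two-sided, p = 0.6, n = 4 each), where 0.0286 is the smallest p this design allows. An unnamed locus, Gm42922, overlaps 710 exon bases of Spry1 on the other strand.

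The Spred proteins bring the Ras inhibitor neurofibromin to the membrane. Spred1 was nearly flat, at 4.62, 4.84, 5.68 and 5.10 FPKM in saline and 5.71, 4.43, 5.70 and 5.81 in morphine (log2 change 0.08 ± 0.13 SE, 95% interval −0.21 to 0.37, limma adjusted p = 0.782). Spred2 had 8.10, 8.44, 9.87 and 8.22 FPKM in saline and 5.85, 12.74, 13.75 and 13.44 in morphine. Morphine replicates 2 to 4 lay above all saline libraries and morphine replicate 1 below them, and the log2 change of 0.30 ± 0.23 (SE; 95% interval −0.20 to 0.81) did not pass (limma adjusted p = 0.496). Without morphine replicate 1 the change was 0.57 ± 0.13 (limma adjusted p = 0.0731).

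**Figure D2:**
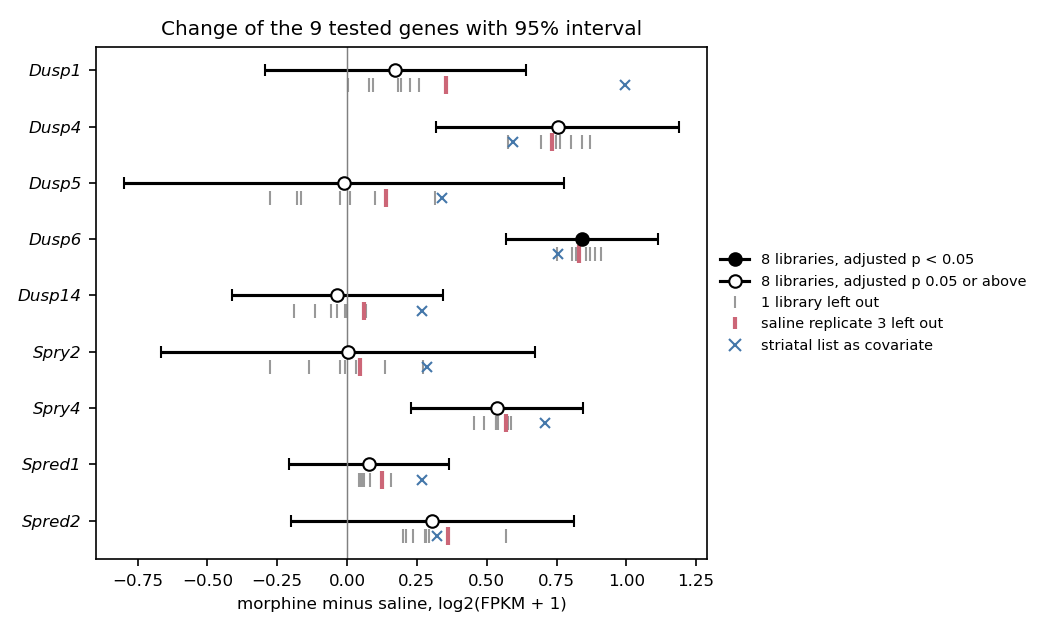
Difference between morphine and saline in log2(FPKM + 1) for the 9 tested genes (circles, with the 95% interval from limma; filled where the adjusted p is under 0.05), with the value when each library is left out (grey ticks; red for saline replicate 3) and with the striatal marker mean as a covariate (blue crosses). The estimates of Dusp6, Dusp4, Spry4, Dusp1, Spred1 and Spred2 stay to the right of 0 in every fit drawn, that of Dusp1 by as little as 0.0034. The intervals of Dusp1, Spred1 and Spred2 include 0, and the cross of Dusp1 lies far from its circle.

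Morphine replicate 1 held the lowest morphine value of Dusp4, Dusp5, Spry1 and Spred2 and the highest of Dusp1, Spry2 and Spry4. It was also the library with the most fragments (about 19300000). Whether members differed from each other in their change was tested on the log2 ratio within each library, for the 20 pairs within the phosphatases and within the Sprouty and Spred genes. The ratio did not overlap between the groups for 3 pairs: Dusp6 over Dusp14 (difference of the changes 0.88), Spry4 over Spred1 (0.46) and Spry4 over Spry1 (0.64). Each had p = 0.0286, the smallest the exact permutation test can give with n = 4 each (two-sided). After Benjamini-Hochberg adjustment over the 20 pairs each was at 0.190, so no pair passed. A pair could have passed only if most of the pairs had reached the smallest p, so this result does not show that the members changed alike. Dusp6 over Dusp1 differed by 0.67 (exact permutation p = 0.0857, adjusted 0.327). Dusp6 over Dusp4 differed by 0.088 (exact permutation p = 0.8, adjusted 0.902), so the changes of these genes could not be told apart.

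In order of mean level in saline, the genes ran Dusp14 (67.6 FPKM), Dusp1 (28.4), Dusp6 (21.9), Spry2 (10.9), Spred2 (8.66), Spred1 (5.06), Dusp5 (3.85), Spry4 (1.89), Dusp4 (1.75) and Spry1 (0.835). The ranges of the libraries overlapped between Dusp1 and Dusp6, between Spry2 and Spred2, between Spred1 and Dusp5 and between Spry4 and Dusp4, and the other neighbours were apart. In morphine, Dusp6 (40.1 FPKM) stood second and Dusp1 (30.9) below it, with ranges that overlapped. Dusp6 was above Dusp1 in 1 of 4 saline and 4 of 4 morphine libraries.

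The levels of 4 members are drawn against the striatal marker mean of the same library. Dusp6, Dusp4 and Spry4 in saline replicate 3, whose striatal mean was far above the rest, lay within the range of the other saline libraries. The Dusp1 level in that library was the highest of the 8.

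**Figure D3:**
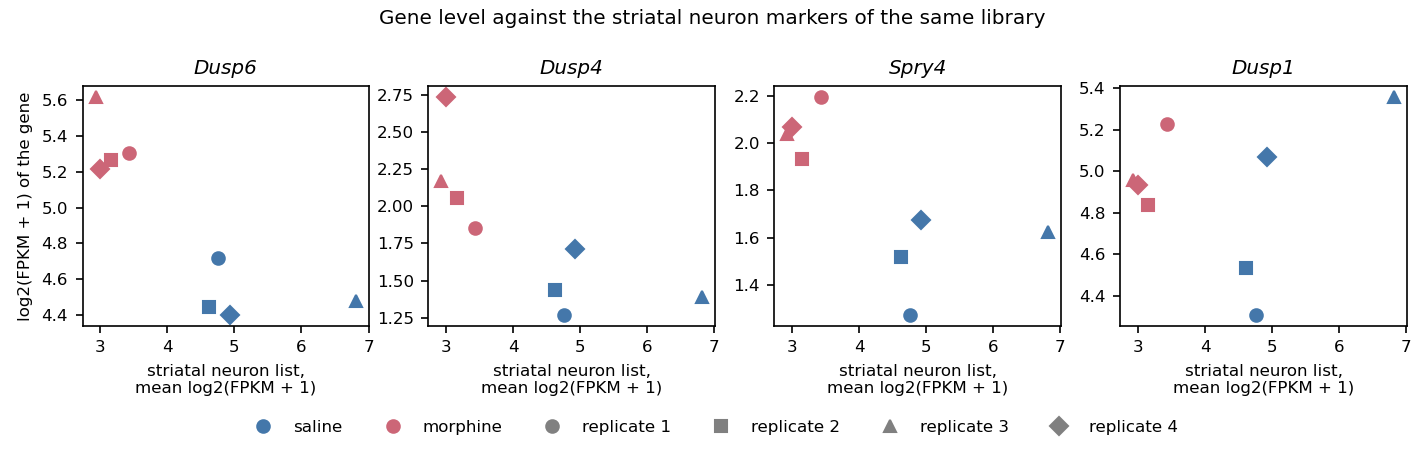
Level of Dusp6, Dusp4, Spry4 and Dusp1 (log2(FPKM + 1), vertical axes not starting at 0) against the mean log2(FPKM + 1) of 22 striatal neuron markers in the same library; blue is saline, red is morphine and the symbol gives the replicate. The groups separate along both axes for Dusp6, Dusp4 and Spry4, and saline replicate 3 is the point at 6.82 on the horizontal axis.

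With predicted and unnamed genes left out, the 3 genes whose levels followed Dusp6 most closely over the 8 libraries were Rasl11a, a Ras-like GTPase gene (Pearson r = 0.989), Fam84a (0.979) and F8a (0.962). The libraries form separate groups, so these values mainly reflect the difference between the groups; with the group means removed, r was 0.932, 0.769 and 0.537. Rasl11a went from a mean of 2.54 FPKM in saline to 8.50 in morphine, Fam84a from 20.6 to 35.2 and F8a from 11.1 to 16.1. All of them passed (limma adjusted p = 0.0207, 0.0204 and 0.0381), which their choice by correlation with a gene that passed favours.

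Of 31 tested genes that ERK induces or transcription factors that it acts on, 6 rose and 0 fell, where 1.04% of all tested genes rose. The median of their log2 changes was 0.44; at an unadjusted p under 0.05, 14 were higher and 1 lower. The list holds immediate early genes already known to be higher in these libraries, so it is not independent evidence of their direction. The members that rose were Klf10, Fos, Jun, Etv1, Ier2 and Arc. Klf10, an early-response transcription factor gene, had 13.41, 12.81, 9.37 and 16.09 FPKM in saline and 27.78, 25.01, 33.76 and 25.51 in morphine, with no overlap (log2 change 1.07 ± 0.16 SE, limma adjusted p = 0.0207).

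Etv1, an ETS family transcription factor gene, had 14.46, 15.39, 13.85 and 24.95 FPKM in saline and 29.22, 34.08, 32.25 and 52.01 in morphine (log2 change 1.06 ± 0.21 SE, limma adjusted p = 0.0381). Replicate 4 was the highest of each group, as it was for Dusp4. Fos, the immediate early gene most used as a marker of neuronal activity, averaged 18.5 ± 5.70 FPKM with saline and 41.7 ± 3.60 with morphine (SD, n = 4 each; limma adjusted p = 0.0207), with no overlap. Jun, a partner of Fos in AP-1, rose by 0.83 ± 0.16 and Ier2, a short immediate early gene, by 0.67 ± 0.15 (log2, SE; limma adjusted p = 0.0319 and 0.0471). Arc, a synaptic immediate early gene, overlapped between the groups because saline replicate 3 had 71.70 FPKM and morphine replicate 4 had 70.49. The number of this list's genes that rose was 9 with saline replicate 3 left out, 5 without saline replicate 4, 2 without saline replicate 1 or morphine replicate 1, 1 without morphine replicate 2, and 0 in the 3 fits in which limma called no gene at all (12, 12 and 15 of the list then higher at an unadjusted limma p under 0.05). It was 1 with the striatal mean as a covariate, with a list median of 0.67, and 0 with no filter on low values.

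The listed kinases, receptors and adapters had no gene past the limma threshold with all 8 libraries. Of 31 tested genes of the Ras to ERK cascade, its scaffolds and the kinases beside or downstream of it, none passed (2 higher and 3 lower at an unadjusted p under 0.05). Their median log2 change was −0.005. The smallest p belonged to Rasgrp2, a Ras family exchange factor gene enriched in the striatum, at 15.6 ± 4.74 FPKM in morphine and 45.9 ± 28.9 in saline (SD, n = 4 each; limma adjusted p = 0.0616), with 88.9 FPKM in saline replicate 3. With that library left out it passed, at a log2 change of −1.01 ± 0.21 (SE; limma adjusted p = 0.0395). Rasgrf1, a calcium-responsive Ras exchange factor gene, averaged 107.1 ± 7.01 FPKM with saline and 136.0 ± 6.41 with morphine (SD, n = 4 each; limma adjusted p = 0.0768). The atypical kinase gene Mapk6 had a log2 change of −0.54 ± 0.14 and Shoc2, a scaffold of Raf activation, one of 0.41 ± 0.12 (SE; limma adjusted p = 0.0788 and 0.0949).

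Among 23 tested receptors and adapters none passed (limma; 0 higher and 3 lower at an unadjusted p under 0.05), and 17 had negative changes, with a median of −0.15. Those with the smallest p were the receptor gene Fgfr3, which is also on the astrocyte list (−0.42 ± 0.15), the adapter genes Shc1 (−0.47 ± 0.17) and Shc3 (−0.34 ± 0.14), and Pdgfrb, which is also on the mural cell list (−0.35 ± 0.16; log2, SE). Among 20 tested JNK and p38 pathway genes none passed (limma; 2 higher and 1 lower at an unadjusted p under 0.05; median 0.095), with the smallest p for Map2k6, which encodes a kinase upstream of p38 (0.43 ± 0.14), Mapkapk3 (−0.50 ± 0.20), Mapk12 (0.51 ± 0.22) and Map3k4 (0.28 ± 0.13).

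The other pathway regulators and phosphatases likewise had no call. Of 35 listed genes 30 were tested and none passed by limma (4 higher and 2 lower at an unadjusted p under 0.05). The median log2 change of the tested genes was 0.09. Rasal1 and Rasa1, which are GTPase-activating proteins for Ras, had log2 changes of 0.59 ± 0.17 and 0.57 ± 0.19 (SE; limma adjusted p = 0.0908 and 0.142). Socs2, a cytokine signalling suppressor gene, ran from 15.28 to 16.07 FPKM in saline replicates 1, 2 and 4 and from 17.59 to 29.61 with morphine, with 6.59 in saline replicate 3 (limma adjusted p = 0.123). Flrt3, a membrane protein gene of the FGF pathway, ran from 9.34 to 10.03 FPKM in saline replicates 1, 2 and 4 and from 4.2 to 7.19 with morphine, with 31.82 in saline replicate 3 (limma adjusted p = 0.127).

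**Figure D4:**
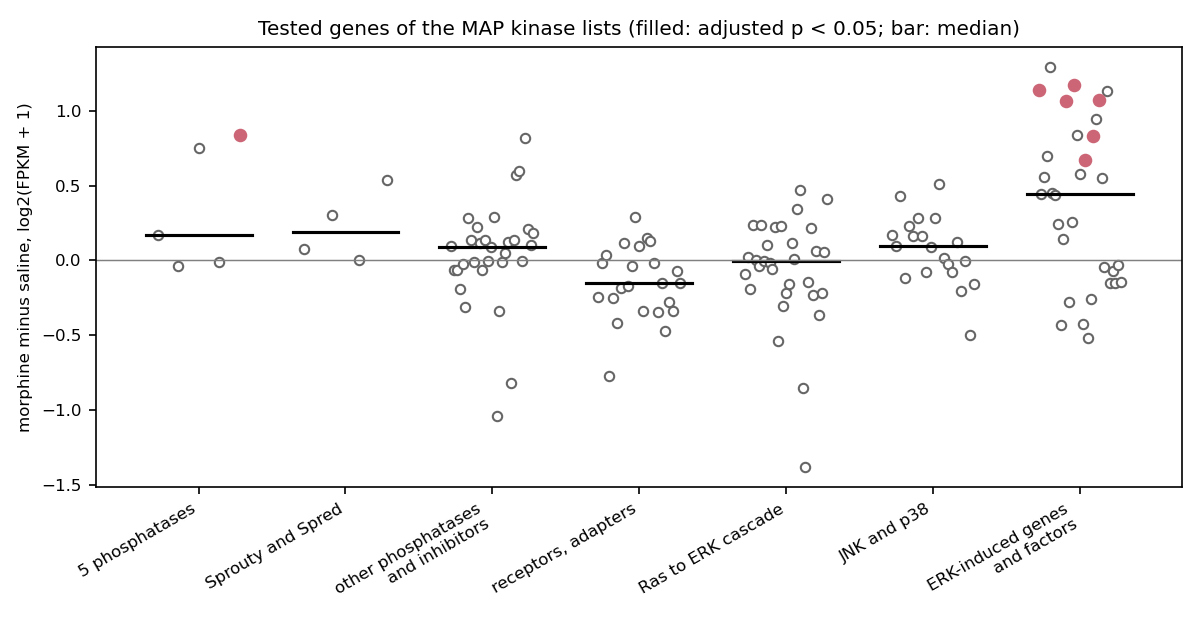
Difference between morphine and saline in log2(FPKM + 1) for each tested gene of 7 MAP kinase lists; filled red points have an adjusted p under 0.05, open points do not, and the bar is the list's median. Filled points appear only in the list of 5 phosphatases (Dusp6) and in the list of ERK-induced genes and factors (6 of 31), whose median lies at 0.44.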

How the data were processed

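RNA-seq of 8 nucleus accumbens libraries, 4 saline and 4 morphine by their titles, was analysed. Per the labels' protocols, total RNA was copied from an oligo-dT primer with template switching and amplified by PCR, with no molecular identifiers or strand marking named. The authors deposited FPKM values per gene and library, per the file headers; the tools named per the submitters' processing notes are StringTie 1.3.1, RSEM, HISAT2, Bowtie2 2.2.8 and fastp 0.18.0, with build mm10; roles, order and annotation are not given there. Identifiers of 22283 of 22337 genes matched GENCODE M21 (GRCm38), which gave symbols and 1-based coordinates.

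Depth was estimated per library: among FPKM values times length of single-transcript genes of 150 to 1500 bases, at most 6 fragments, between 78.5 and 84.4% were whole multiples of 1 unit within 0.1, where evenly spread remainders give 20%. Fragment numbers and counting errors of members follow from that unit and the GENCODE exon length or longest transcript. They are approximate, cover counting error only and treat fragments as independent, without allowance for PCR copies. No count model was run.

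All 8 libraries were fitted without a block in limma 3.58.1 (R 4.3.3; log2(FPKM + 1), mean-variance trend, two-sided), after a check on simulated data. Alternatives were pseudocount 0.1, no filter or an FPKM of 5, 3 other scalings, no trend, a replicate block, a striatal covariate and each library left out. Members, gene lists and tests were chosen with earlier results of these data known; the pair differences and the fragment estimate were added after the values were seen. The genes named are all 10 members, up to 4 genes of each pathway list with the smallest p and any that passed, and the 3 genes most correlated with a member that passed. Predicted and unnamed genes were left out of that correlation ranking.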

Additional observations from a re-analysis of the deposited data

Results flagged for a closer look

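In 2 of the 20 sets of 4 libraries (10 genes in 2 groups), 1 library lay far from the other 3 on the log2(FPKM + 1) scale; chance flags about 1 set in 20. Spred2 had 5.85 FPKM in morphine replicate 1 and between 12.74 and 13.75 in the other morphine libraries. Spred1 had 4.43 FPKM in morphine replicate 2 and between 5.70 and 5.81 in the others. Over all 12536 tested genes, morphine replicate 1 was set apart in this way in 1.72%, morphine replicate 2 in 2.04% and saline replicate 3 in 2.85%.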

How the results depend on the processing

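The log2 changes of Dusp6, Dusp4, Spry4, Dusp1, Spred1 and Spred2 stayed above 0 in every alternative run. Those of Dusp14, Dusp5 and Spry2 changed sign: with the striatal covariate Dusp14 was at 0.27 and Dusp5 at 0.34, with quantile normalisation Dusp5 was at 0.054, and Spry2 was at −0.0033 with a pseudocount of 0.1, −0.036 with mitochondrial genes removed and −0.042 with upper-quartile scaling. With 1 library left out, Dusp14 lay between −0.19 and 0.067, Dusp5 between −0.28 and 0.32 and Spry2 between −0.28 and 0.27. The number of members that rose was 0 with no filter on low values (Dusp6 adjusted p = 0.0504, where 19607 genes were tested) or the striatal covariate, 2 with quantile normalisation, and between 0 and 1 with 1 library left out. Genes called higher and lower over the whole table were 8 and 9 with no filter, 2 and 1 with the covariate, and between 0 and 198 higher and 0 and 252 lower with 1 library left out. They were 77 higher with mitochondrial genes removed, 81 with upper-quartile scaling and 84 without a trend (130 as reported), and 111 lower at an FPKM of 5 (186 as reported). With the mitochondrial genes removed 211 were lower, and with upper-quartile scaling 246. The cause of these differences was not tested. With the replicate number as a block, 0 members passed (Dusp6 0.84, adjusted p = 0.0537), 1 ERK-induced gene rose, 0 striatal markers fell, and 2 genes were higher and 3 lower in all; same-numbered libraries did not deviate together (r of 0.052, 0.037, −0.059 and −0.205), so the numbers are not taken as pairs. Counting error limits Spry1, Dusp4 and Dusp5 most. Members at an FPKM below 5 in most libraries gave no value at the stricter filter.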
